A study of Rattus norvegicus with 8 samples.

Results

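The plasminogen activation system of nucleus pulposus (NP) cells was examined as 9 genes, chosen by name: the activators Plau and Plat, the receptor Plaur, the serpins Serpine2, Serpinb2, Serpinf1 and Serpinh1, and the clotting regulators F3 and Thbd. All 9 were found among the 32883 genes of the count table, and all passed the count filter that left 13250 genes tested. Primary NP cells from the disc core of adult Sprague Dawley rats were transduced with lentivirus and selected with puromycin. The 4 Sirt6-KD libraries (S5 to S8) came from cells given a mixture of 3 ShSirt6 clones, and the 4 Sirt6-Ctrl libraries (S1 to S4) from cells given ShCtrl, so every library came from transduced, cultured cells. The genes carry the Ensembl identifiers ENSRNOG00000010516 (Plau), ENSRNOG00000019018 (Plat), ENSRNOG00000037931 (Plaur), ENSRNOG00000015461 (Serpine2), ENSRNOG00000002460 (Serpinb2), ENSRNOG00000003172 (Serpinf1), ENSRNOG00000016831 (Serpinh1), ENSRNOG00000011800 (F3) and ENSRNOG00000004687 (Thbd). The series record names cells of 4 rats, each with its controls, and the labels do not say which rat gave which library.

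Plasmin is a serine protease that dissolves fibrin and degrades matrix proteins. It is cut from plasminogen by urokinase (Plau) and tissue plasminogen activator (Plat), and the urokinase receptor (Plaur) holds urokinase at the cell surface. Serpins are a protein family whose inhibitory members trap serine proteases in a covalent complex, which endocytic receptors clear. Some serpins do not inhibit proteases, among them Serpinf1 and the collagen chaperone Serpinh1. In the degenerating disc, matrix breakdown by proteases is a central feature.

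Total counts per library ran from 31994838 to 40124813, and 3 counts corresponded to 0.0727 to 0.0927 CPM (counts scaled to the library size, which TMM sets from the bulk of the genes). Spike-in RNAs took 2.97% to 9.80% of the counts in Sirt6-Ctrl, with S1 and S2 the highest, and 2.15% to 2.47% of those in Sirt6-KD (p = 0.0286 by an exact permutation test, two-sided, which is the lowest value that 4 against 4 libraries can reach). Results that depend on S1 and S2 are therefore also given without them. Sirt6 itself dropped from 52.7 ± 3.78 CPM to 20.6 ± 1.06 CPM (values after ± are SDs over the 4 libraries of a group unless named otherwise), by 1.35 on the log2 scale (adjusted p = 0.000713, edgeR). Of 14 NP marker genes listed, 9 had a row, and their summed level was 232 to 262 CPM in the Sirt6-Ctrl libraries and 217 to 235 CPM in the Sirt6-KD ones. That sum mixes opposite changes. Car12 averaged 28.4 ± 31.0 CPM over S1 to S4 and 82.1 ± 10.8 CPM over S5 to S8. Except for Car12 and Sox9, every NP marker with a row had a lower mean after the knockdown. Pax1 was the most highly counted of them over the 8 libraries. It was at 71.7 ± 8.09 CPM in the Sirt6-Ctrl libraries and 53.3 ± 4.88 CPM in the Sirt6-KD ones. Krt18, Krt19, T, Col2a1 and Shh had no row under those names and were not analysed here. Krt8 lay between 2.24 and 10.7 CPM, and the fibroblast collagen gene Col1a1 lay between 7957 and 25199 CPM. Col1a2, for the other chain of that collagen, lay between 0.890 and 2.59 CPM, and the reason was not tested. Acan was at 4.54 to 55.6 CPM in the Sirt6-Ctrl libraries and 9.80 to 18.7 CPM in the Sirt6-KD ones. Sox9 was at 4.68 to 15.7 CPM in the former and 6.74 to 16.6 CPM in the latter. Only part of the marker list therefore stands behind the NP label. Of the 9 tested NP markers Krt8 and Car3 were called lower in Sirt6-KD (-1.32 and -2.70, adjusted p = 0.0441 and 0.0127, edgeR). Krt8 was not called without S1 and S2 (-0.69, adjusted p = 0.205, edgeR) or by limma-voom. Car12 and Sox9 had positive log2 fold changes of 1.53 and 0.48 that edgeR did not call (adjusted p = 0.0776 and 0.461), and limma-voom called Car12 higher. All the other tested NP markers had negative log2 fold changes. The median of the list was -0.62, beside -0.02 over all genes tested. Of the 9, in either direction, 6 had an unadjusted p under 0.05. Cd24 was not called by edgeR (-0.98, adjusted p = 0.0537), but DESeq2 called it lower. Of 5 fibroblast markers Col3a1 was called lower (-1.38, adjusted p = 0.00812, edgeR). Thy1 was not called by edgeR (-0.76, adjusted p = 0.0653), but DESeq2 and limma-voom called it lower. Pdgfra had a positive log2 fold change of 0.82 that was not called (adjusted p = 0.167, edgeR). The part of these marker differences in the results that follow was not tested. Of the 7 endothelial markers only Tek had a row, at no more than 0.592 CPM, and of 7 macrophage and blood markers Cd68 and Csf1r had rows, at no more than 4.75 CPM. Of the platelet markers only Itga2b had a row, at no more than 4.08 CPM. Across these bulk libraries, fewer cells making an RNA and less RNA per cell cannot be told apart.

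Of the 9 genes, Plaur and Plat rose and Serpinh1 and Serpinf1 fell in Sirt6-KD cells, where a call needed more than a 1.5-fold difference and an adjusted p under 0.05 (quasi-likelihood test of edgeR, with Benjamini-Hochberg adjustment across every row tested). Over all genes tested 8.02% were called higher and 10.7% lower. The other 5 were not called, though 7 of the 9 log2 fold changes were positive. The median log2 fold change of the 9 was 0.83, beside -0.02 over all genes tested, and without S1 and S2 it was 0.39, beside 0.01. In 3 of the 9 the groups did not overlap, beside 30.4% of all genes tested. The Sirt6-Ctrl libraries were the more variable for 8 of the 9, with Plat the exception, and for 85.6% of all genes tested. The coefficient of variation had a median over the 9 genes of 48.5% in Sirt6-Ctrl and 18.4% in Sirt6-KD, and over all genes tested the medians were 32.0% and 14.6%.

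**Figure D1:**
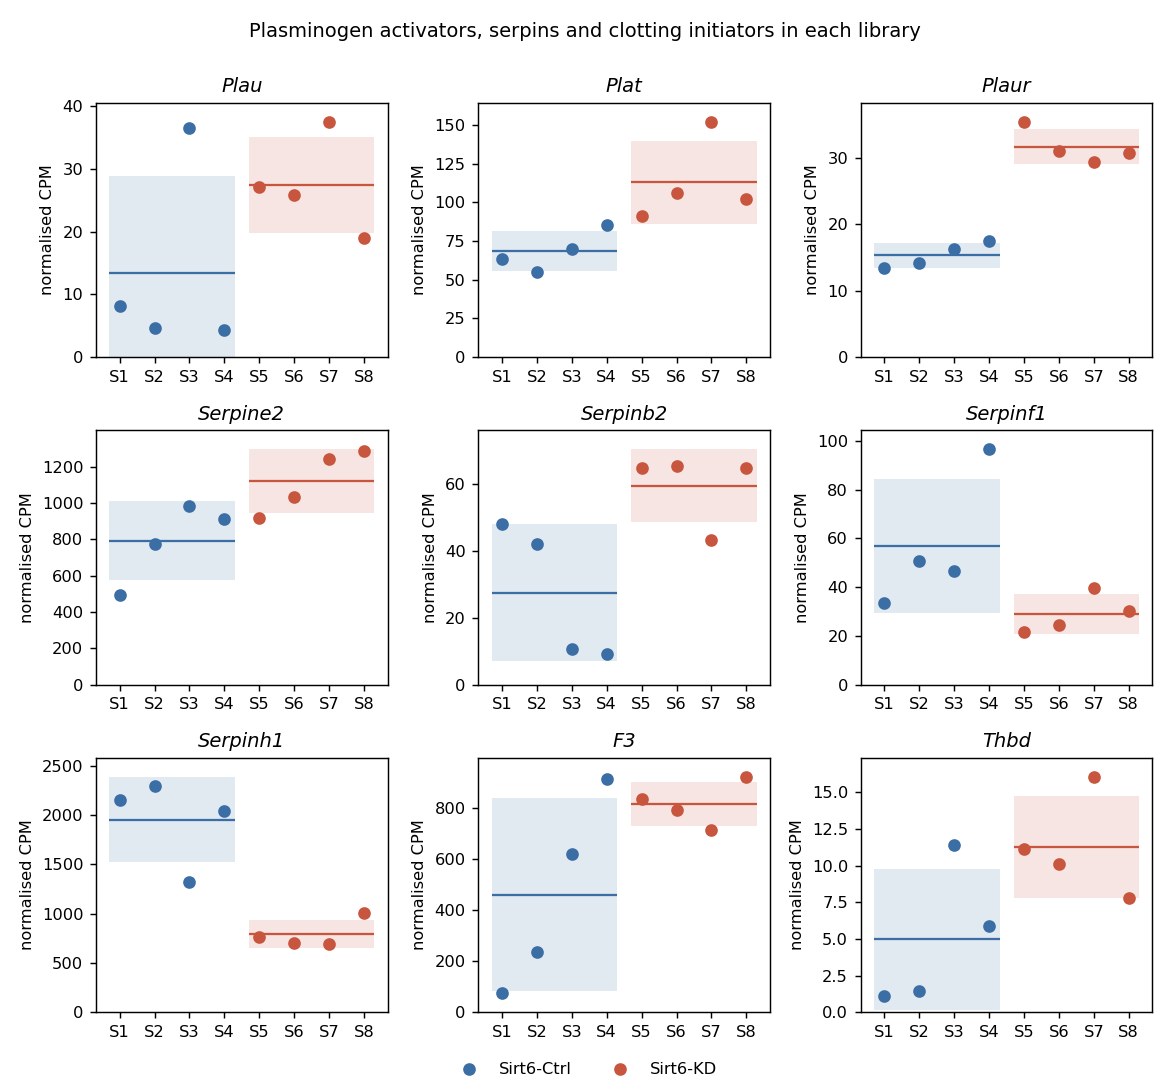
TMM-normalised CPM (vertical axis, linear from 0) of the 9 genes in libraries S1 to S8 (horizontal axis), with the group mean as a line and the SD as a band. Plaur, Plat and Serpinh1 separate the groups, whereas Plau, Serpinb2, F3 and Thbd vary more among the Sirt6-Ctrl libraries than among the Sirt6-KD libraries.

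Plaur encodes the glycosylphosphatidylinositol-anchored urokinase receptor. Its level was 13.4, 14.1, 16.2 and 17.5 CPM in S1 to S4 and 35.5, 31.0, 29.4 and 30.8 CPM in S5 to S8. Every Sirt6-KD library lay above every Sirt6-Ctrl library, and its spread within each group was the narrowest among the 9 genes. The rise was 2.07-fold, or 1.05 ± 0.16 in log2 (estimate ± standard error, adjusted p = 0.00416, edgeR). It stayed called with each library left out in turn (0.99 to 1.11) and without S1 and S2 (0.92, adjusted p = 0.0095, edgeR).

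Promoter sequence was looked up in RefSeq for the GRCr8 rat assembly, where 6 of the 9 genes had an entry, and the 250 bases before the gene start were searched on both strands. The motifs were AP-1 (TGANTCA), the cyclic AMP response element (TGACGTCA), the GC box (GGGCGG), a heat shock element (GAANNTTC), the TATA box (TATAAA) and the CCAAT box (CCAAT). Those of Plaur and Serpinh1, the 2 called genes whose groups did not overlap and that had an entry, are printed 5′ to 3′ with the matches in capitals. The promoter of Plaur lies at chr1:89181113-89181362 on the plus strand, and that of Serpinh1 at chr1:163062977-163063226 on the minus strand.
Plaur: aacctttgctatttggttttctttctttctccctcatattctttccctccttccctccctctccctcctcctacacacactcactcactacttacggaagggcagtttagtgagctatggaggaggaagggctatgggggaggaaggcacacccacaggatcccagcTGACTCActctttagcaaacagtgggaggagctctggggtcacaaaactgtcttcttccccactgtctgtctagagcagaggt
Serpinh1: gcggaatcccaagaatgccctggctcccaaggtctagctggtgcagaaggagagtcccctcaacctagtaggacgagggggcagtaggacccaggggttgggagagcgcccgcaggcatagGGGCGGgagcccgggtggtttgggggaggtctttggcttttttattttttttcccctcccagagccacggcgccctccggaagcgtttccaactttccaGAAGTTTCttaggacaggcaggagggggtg
The capitals in Plaur mark an AP-1 match, TGACTCA, 83 to 77 bases before the gene start, and AP-1 matches were found in 6.36% of the 27457 promoters in the table. The capitals in Serpinh1 mark a GC box (in 32.4% of promoters) and, 30 to 23 bases before the start, the heat shock element match GAAGTTTC (in 7.02%). Among the other 4 promoters found, Serpinb2 held an AP-1 match and a CCAAT box, Plau and Serpine2 held GC boxes, and Serpinf1 held no match. These matches describe the letters alone, and no factor binding was measured.

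The activators differed in how evenly they were expressed. Plat, which encodes the fibrin-dependent activator, was at 63.2, 55.3, 69.6 and 85.7 CPM in S1 to S4 and at 91.3, 106, 152 and 102 CPM in S5 to S8. The groups did not overlap, but S4 and S5 lay close together and S7 stood highest. Plat rose 1.65-fold, or by 0.72 ± 0.19 in log2 (standard error, adjusted p = 0.0237, edgeR). Plat was no longer called without S1 and S2 (0.55, adjusted p = 0.108, edgeR), nor with S1, S6 or S7 left out alone, with log2 fold changes of 0.71, 0.75 and 0.55.

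Plau, which encodes urokinase, was at 8.16, 4.61, 36.5 and 4.31 CPM in S1 to S4 and at 27.2, 25.8, 37.5 and 19.0 CPM in S5 to S8. Of the Sirt6-Ctrl libraries, S3 lay within the Sirt6-KD range and the other 3 lay below all of it. The log2 fold change of 1.03 was not called and its 95% interval ran from -0.34 to 2.41 (adjusted p = 0.256, edgeR). Without S3 it was called, at 2.27 (adjusted p = 0.00128, edgeR), and without S1 and S2 it was 0.43 (adjusted p = 0.70, edgeR). The limma-voom fit called it, at 1.65 (adjusted p = 0.036).

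Serpine2 encodes protease nexin-1, a secreted inhibitor of thrombin, urokinase and plasmin. It had 491, 776, 985 and 913 CPM in S1 to S4 and 919, 1032, 1244 and 1288 CPM in S5 to S8. The groups overlapped through S3, which lay above S5. Its log2 fold change of 0.50 was not called (95% interval 0.02 to 0.98, adjusted p = 0.121, edgeR) in the 8-library fit or in any of the 17 alternatives, and it was 0.25 without S1 and S2.

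Serpinb2 encodes plasminogen activator inhibitor 2, a largely intracellular serpin. It was at 47.9, 42.0, 10.7 and 9.16 CPM in S1 to S4 and at 64.5, 65.2, 43.0 and 64.6 CPM in S5 to S8. Here the Sirt6-Ctrl libraries fell into a higher pair, S1 and S2, and a lower pair, S3 and S4, and S7, the lowest Sirt6-KD library, lay between S2 and S1. Its log2 fold change, 1.11, was not called (95% interval 0.03 to 2.19, adjusted p = 0.125, edgeR). Without S1 and S2, the libraries with the highest spike-in share, it was 2.59 and was called (adjusted p = 0.000922, edgeR), and it was also called with DESeq2 (1.13, adjusted p = 0.0464), with limma-voom (1.51, adjusted p = 0.0314) and with spike-in scaling. The part of the spike-in share in this result was not tested.

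Serpinh1 encodes the endoplasmic reticulum chaperone HSP47, which binds folded procollagen and does not inhibit proteases. It was at 2156, 2293, 1324 and 2042 CPM in S1 to S4 and at 765, 702, 696 and 1006 CPM in S5 to S8. Every Sirt6-KD library lay below every Sirt6-Ctrl library, with S3 and S8 the nearest pair. The level was 2.47-fold lower in Sirt6-KD, at -1.30 ± 0.20 in log2 (standard error, adjusted p = 0.00401, edgeR). It remained called with each library left out (-1.45 to -1.20) and without S1 and S2 (-1.08, adjusted p = 0.0137, edgeR). The gene whose centred log2 CPM profile over the 8 libraries lay nearest was the autophagosome gene Map1lc3b, with a root mean square difference of 0.082.

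Serpinf1 encodes pigment epithelium-derived factor, a secreted non-inhibitory serpin known for blocking vessel growth. It was at 33.4, 50.5, 46.5 and 96.6 CPM in S1 to S4 and at 21.6, 24.3, 39.8 and 30.1 CPM in S5 to S8. S4 stood highest, and the groups overlapped because S7 lay above S1. With a difference of -0.97 ± 0.32 in log2 (standard error, adjusted p = 0.0499, edgeR), Serpinf1 lay at the edge of the threshold. The call was lost in 12 of 17 alternatives, among them the omission of S2, S4, S5, S6, S7 or S8 alone, and with S4 left out the log2 fold change was -0.59 (adjusted p = 0.107, edgeR). It held without S1 and S2 (-1.30, adjusted p = 0.0273, edgeR).

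F3 encodes tissue factor, the membrane receptor that starts clotting with factor VII. It was at 73.6, 236, 621 and 913 CPM in S1 to S4 and at 836, 793, 715 and 922 CPM in S5 to S8. The Sirt6-Ctrl libraries spanned 12.4 times from lowest to highest against 1.29 times in Sirt6-KD, and S4 lay within the Sirt6-KD range. A log2 fold change of 0.83 was not called (95% interval -0.43 to 2.08, adjusted p = 0.322, edgeR), and without S1 and S2 it was 0.10. The nearest profile was that of Ube2c, with a root mean square difference of 0.21, and Plk1 was among the nearest 3, at 0.32. Both genes act in mitosis.

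Thbd encodes thrombomodulin, the thrombin receptor that turns thrombin towards the activation of protein C. It was at 1.12, 1.45, 11.4 and 5.91 CPM in S1 to S4 and at 11.1, 10.1, 16.1 and 7.81 CPM in S5 to S8. In raw counts S1 and S2 held 39 and 47 reads, so these values rest on few reads, and S3 again lay within the Sirt6-KD range. Its log2 fold change of 1.18 was not called (95% interval -0.25 to 2.61, adjusted p = 0.216, edgeR), but was called without S3, at 1.99 (adjusted p = 0.0314, edgeR), and was 0.39 without S1 and S2 (adjusted p = 0.497, edgeR).

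**Figure D2:**
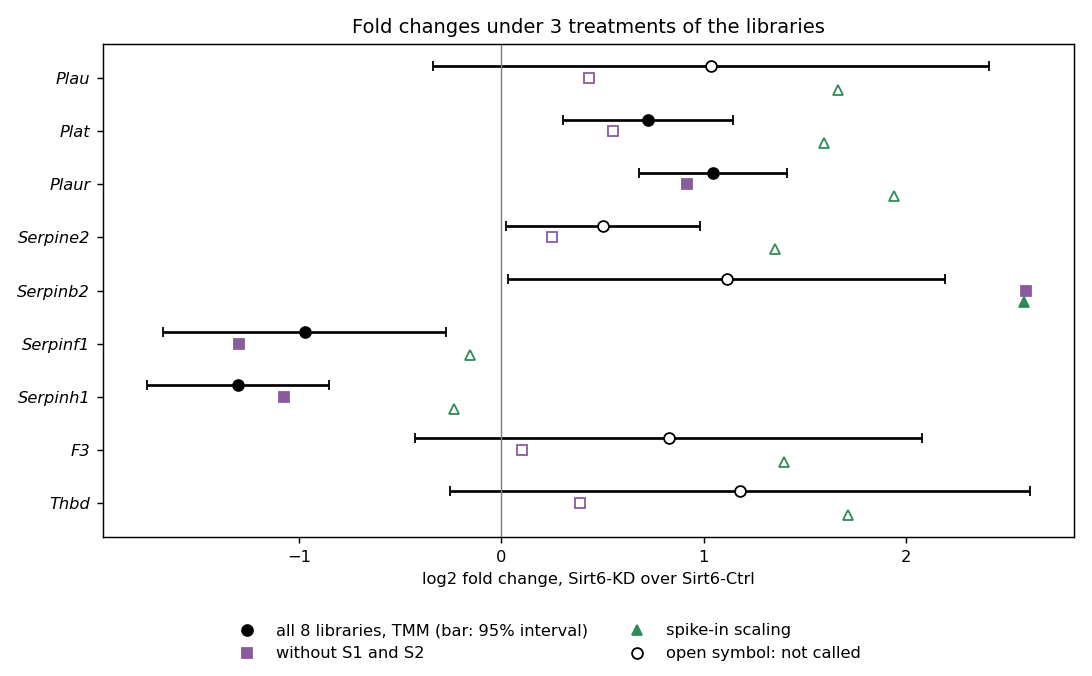
Log2 fold change between Sirt6-KD and Sirt6-Ctrl (horizontal axis, positive where Sirt6-KD is higher) for the 9 genes, from all 8 libraries with the 95% interval as a bar, without S1 and S2, and with libraries scaled by their spike-ins. Filled symbols were called, and no gene changes sign between the 3 treatments, while the spike-in values lie to the right of the others for all genes except Serpinb2.

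When libraries were scaled by their spike-in counts in place of TMM, the median over all genes moved to a log2 fold change of 0.94. On that scale Serpinh1 and Serpinf1 were at -0.23 and -0.16, which lay -1.18 and -1.10 from that median, and neither was called (adjusted p = 0.669 and 0.845, edgeR). Plaur and Plat were at 1.94 and 1.60, or 0.99 and 0.65 relative to that median, and were not called (adjusted p = 0.0801 and 0.0898, edgeR). Serpinb2 was called, at 2.58 (adjusted p = 0.0357, edgeR).

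Ratios of counts between genes of the same library do not depend on the scaling, and 8 such pairs were compared. None passed the test. The exact permutation test used cannot give a p below 0.0286 with 4 against 4 libraries. After adjustment over the 8 pairs, a single fully separated pair could therefore not pass. Plaur against Serpine2 had the lowest p, with a log2 ratio of -5.65 ± 0.32 in Sirt6-Ctrl and -5.13 ± 0.33 in Sirt6-KD (p = 0.0857 by the exact permutation test, two-sided, or 0.555 adjusted over the 8 pairs). The Plau to Plaur ratio was 0.607, 0.327, 2.25 and 0.247 in S1 to S4 and 0.767, 0.832, 1.28 and 0.619 in S5 to S8. S3 was the only Sirt6-Ctrl library with more Plau than Plaur reads, as was S7 among the Sirt6-KD libraries. The Plau to Serpinb2 ratio was 0.170, 0.110, 3.41 and 0.472 in S1 to S4 and 0.422, 0.396, 0.873 and 0.295 in S5 to S8. The wide range of the control libraries contained all of the Sirt6-KD values for this pair. The F3 to Thbd ratio was 64.9, 161, 54.3 and 154 in S1 to S4 and 74.9, 78.4, 44.5 and 118 in S5 to S8. This ratio varied less than either gene did in Sirt6-Ctrl, from 54.3 to 161 where F3 spanned 12.4 times and Thbd 10.2 times.

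**Figure D3:**
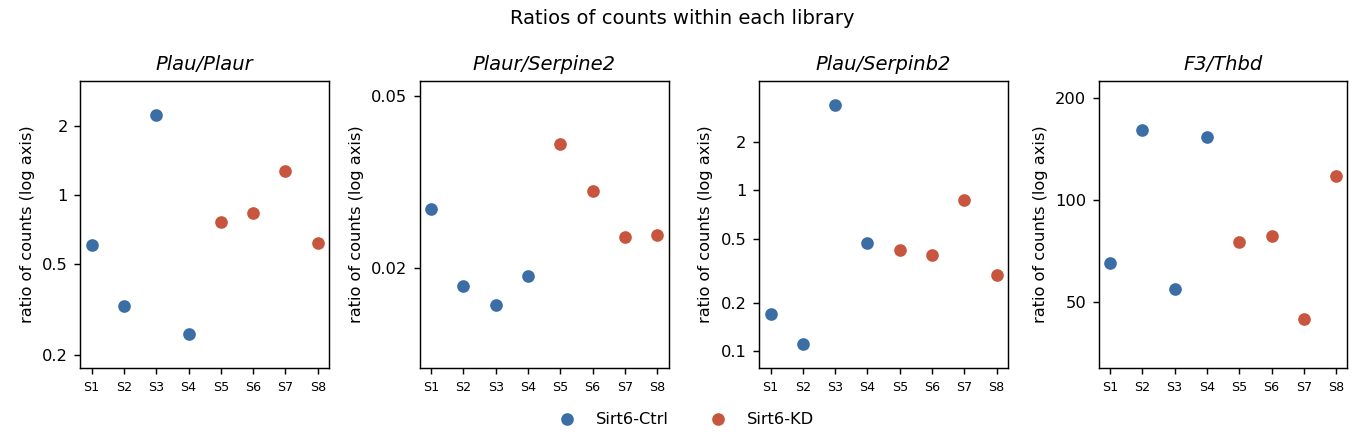
Ratio of counts (with 0.5 added to each, vertical log axis) for 4 of the gene pairs in libraries S1 to S8. In the Plau to Plaur and Plau to Serpinb2 panels S3 stands above all other libraries, at 2.25 and 3.41.

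The profiles of the remaining genes had these nearest neighbours over the 8 libraries, by the root mean square difference of centred log2 CPM. That of Plau was Car12, a carbonic anhydrase and NP marker (0.32), and that of Thbd was Map3k5, a stress kinase (0.24). Plaur lay nearest to Ugt1a7c (0.096), whose exons are shared with other Ugt1a genes so that its counts are uncertain. Plat lay nearest to Abcb1b, a drug efflux pump (0.11), and Serpine2 to Man1a2, a Golgi mannosidase (0.12). For Serpinb2 and Serpinf1 the nearest genes, Dyrk3 and Tmem50b, were farther away (0.42 and 0.27).

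Around the activators, plasminogen itself (Plg) had no row under that name and was not analysed here. Of 13 genes listed for plasminogen and its binding proteins, 8 were tested and 3 were called higher, beside 8.02% of all genes tested. The list also held integrin genes, and those called were Anxa2 and the integrin genes Itgav and Itga3. The median log2 fold change of the list was 0.49, or 0.096 without S1 and S2. Anxa2, a plasminogen-binding membrane protein, rose from 1324 ± 191 to 2109 ± 43.8 CPM, a log2 fold change of 0.67 (adjusted p = 0.0112, edgeR). Eno1, a glycolytic enzyme that binds plasminogen at the cell surface, took the most counts of the list, which also depends on transcript length, and was not called (-0.20, adjusted p = 0.441, edgeR). The Anxa2 partner S100a10 was at 339 to 647 CPM in the Sirt6-Ctrl libraries and 338 to 467 CPM in the Sirt6-KD ones and was not called (-0.34, adjusted p = 0.234, edgeR). The integrin genes Itgav, for a chain of the vitronectin receptor, and Itga3 rose by 1.28 and 2.12 (log2, adjusted p = 0.0217 and 0.00214, edgeR). The plasminogen receptor gene Plgrkt, at 14.2 ± 9.61 and 5.99 ± 1.44 CPM, was not called (-1.24, adjusted p = 0.0632, edgeR), although DESeq2 called it lower.

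Among 9 tested endocytic receptors and partners, 3 were called higher and 1 lower, beside 8.02% and 10.7% of all genes tested. The median log2 fold change of these 9 was 0.28, or 0.0085 without S1 and S2. Lrp1, which takes up complexes of activators with their serpins, rose from 1474 ± 313 to 3290 ± 228 CPM, a log2 fold change of 1.16 (adjusted p = 0.00327, edgeR), and was still called without S1 and S2 (1.02). Vldlr and Igf2r rose by 0.69 and 0.66 (log2, adjusted p = 0.0331 and 0.0164, edgeR), and neither was called without S1 and S2, Igf2r because its difference was then under 1.5-fold. Lrpap1, the chaperone of these receptors, was not called (-0.34, adjusted p = 0.066, edgeR).

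Of 23 further serpin genes listed, 9 were tested and none was called by edgeR. Their median log2 fold change was 0.69, or 0.46 without S1 and S2, and some of them had group means under 1 CPM. In this list 1 gene had an unadjusted p under 0.05, and DESeq2 and limma-voom each called 1 gene higher. Serpinb6a, an intracellular serpin, was at 79.1 to 128 CPM in the Sirt6-Ctrl libraries and 94.2 to 120 CPM in the Sirt6-KD ones, with overlapping groups. Of 21 coagulation genes 9 were tested, with a median log2 fold change of -0.01, or -0.27 without S1 and S2. F8, for clotting factor VIII, rose from 16.6 ± 7.34 to 38.3 ± 5.03 CPM (log2 fold change 1.20, adjusted p = 0.0163, edgeR), and was not called without S1 and S2 (0.93, adjusted p = 0.0522, edgeR). Vkorc1, the vitamin K recycling enzyme, was at 28.7 ± 6.63 CPM in Sirt6-Ctrl and lower, at 15.2 ± 2.49 CPM, in Sirt6-KD (log2 fold change -0.92, adjusted p = 0.0166, edgeR), and was not called without S1 and S2 (-0.71, adjusted p = 0.0623, edgeR). With spike-in scaling it was at 0.16, which is -0.79 relative to the median of genes on that scale. Gas6, a vitamin K-dependent ligand and the most highly counted gene of the list, was not called (-0.51, adjusted p = 0.214, edgeR). Tfpi, the inhibitor of tissue factor, was not called (-0.01, adjusted p = 0.986, edgeR). The protease-activated receptors F2r, F2rl1 and F2rl2 were not called by edgeR, DESeq2 or limma-voom, 0 of the 3 had an unadjusted p under 0.05, and their median log2 fold change was 0.17, or 0.35 without S1 and S2.

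The collagen folding genes that act with Serpinh1 moved unevenly. Of 18 tested, 5 were called lower and 1 higher, beside 10.7% and 8.02% of all genes tested. The median log2 fold change of the 18 was -0.29, or -0.25 without S1 and S2. P3h4, of the lysyl and prolyl hydroxylase complex, fell from 152 ± 42.5 to 56.0 ± 15.0 CPM (log2 fold change -1.44, adjusted p = 0.00481, edgeR). Pdia3, a disulfide isomerase, fell by 1.13 on the log2 scale (adjusted p = 0.00429, edgeR), and both were called without S1 and S2. With spike-in scaling P3h4 and Pdia3 were at -0.36 and -0.04, which is -1.305 and -0.98 relative to the median on that scale. Neither was called there (adjusted p = 0.562 and 0.940, edgeR). P4hb, P3h1 and Colgalt1 were called lower at -0.70, -0.60 and -0.63, but were at 0.34, 0.42 and 0.40 with spike-in scaling, which is -0.61, -0.52 and -0.55 relative to the median there. Without S1 and S2 they were at -0.52, -0.47 and -0.48 and were not called, P4hb because its difference was under 1.5-fold (adjusted p = 0.0198, edgeR). P4ha2, a catalytic subunit of collagen prolyl 4-hydroxylase, rose from 386 ± 55.5 to 615 ± 60.9 CPM (log2 fold change 0.67, adjusted p = 0.0117, edgeR), while P4hb encodes the other subunit of that enzyme. P4ha1 was not called (0.79, adjusted p = 0.051, edgeR), although its groups did not overlap and DESeq2 and limma-voom called it higher.

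**Figure D4:**
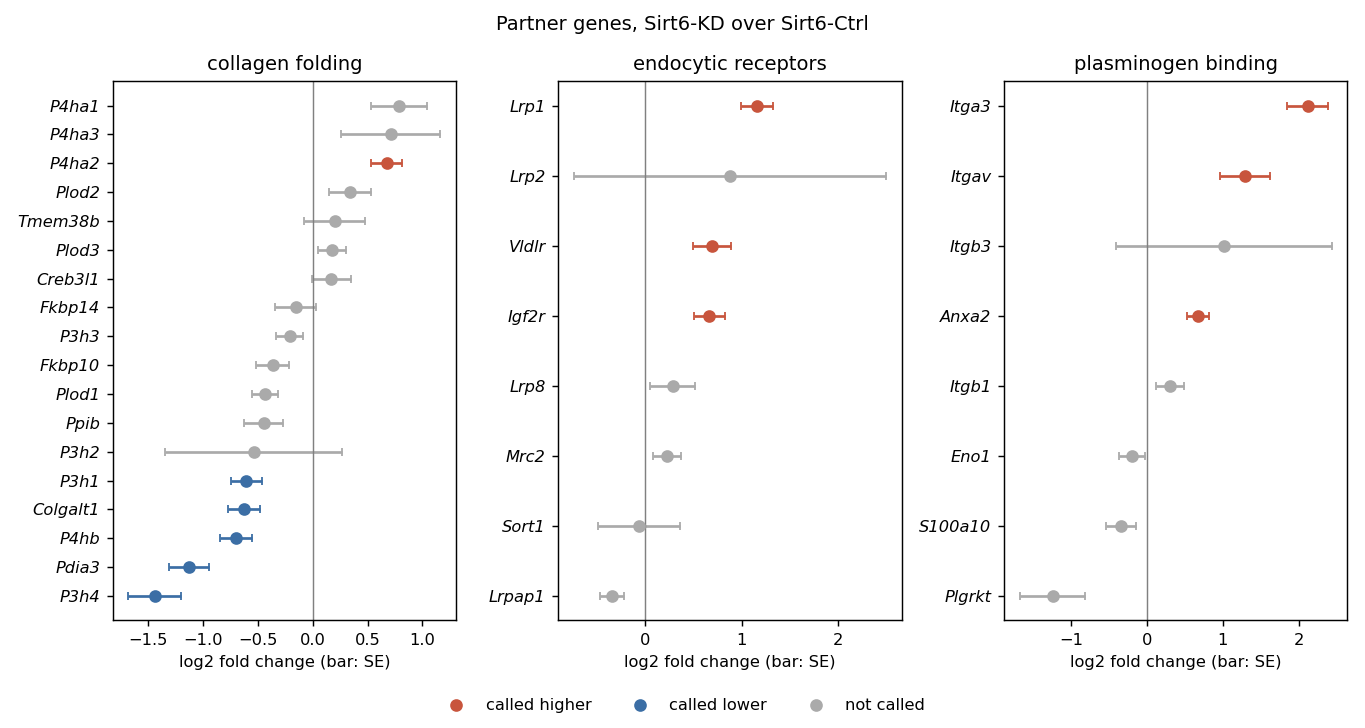
Log2 fold change, positive where Sirt6-KD is higher, with its standard error (horizontal axis) for the tested genes of 3 partner lists, with 1 endocytic receptor gene left out. In the collagen folding list P3h4 and Pdia3 lie lowest, at -1.44 and -1.13, and in the other lists Itga3 and Lrp1 lie highest, at 2.12 and 1.16.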

How the data were processed

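RNA-seq of 8 libraries was analysed. The authors deposited a table of unnormalized counts, with 32975 rows for Ensembl genes and spike-ins. The submitters' processing notes name Trimmomatic 0.36, STAR 2.5.2b, featureCounts of Subread 1.5.2, DESeq2 and the Rnor_6.0 genome build, and whether counting used the strand is not given in the sources used here. A second table deposited by the authors holds the fold changes and p-values of their comparison and a normalized signal per library (raw counts over a size factor). These values entered no result here, and only its gene names were used. Its 13612 rows are those with summed counts over 80, so a gene at or under that count carried no name here. Why a listed gene had no row under its name was not traced further.

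The genes and lists were chosen with earlier results of these data known. All values were computed from the raw counts with edgeR 4.0.16, limma 3.58.1 and DESeq2 1.42.0 in R 4.3.3: default filterByExpr, TMM, and the two-sided quasi-likelihood test of Sirt6-KD against Sirt6-Ctrl, with spike-in rows fitted too but not counted as genes. Standard errors are the log2 fold change over the root of the F statistic. Genes named are the 9, Sirt6, called members of the lists, the most highly counted member of each list, and the nearest profiles. Others (S100a10, Plgrkt, Lrpap1, Tfpi, P4ha1, Serpinb6a, F2rl1, F2rl2, Cd24, Acan, Sox9, Csf1r, Col1a2, Thy1 and Pdgfra) were named after their values were seen. Each library was kept as 1 sample, since no pair agreed within sampling noise. Whether the libraries of a group come from separate rats is stated for the series only, so p-values measure the spread between these libraries. Depth floors cover counting error only. Exon lengths were not used, so levels are compared between libraries and not between genes. Alternatives were other filters, scalings and tests, and libraries left out. A few genes of the lists and nearest profiles enter the counts and medians but are not reported here by name.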

Additional observations from a re-analysis of the deposited data

Results flagged for a closer look

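For the genes and ratios named, 76 groups of 4 libraries were examined for an extreme library by Dixon's criterion, which compares the distance from the extreme library to its neighbour with the whole range. It picked out 4 of them, and 3.8 would be picked out by chance. S3 was the extreme Sirt6-Ctrl library for Plau, with a distance of 0.881 of the range above the next. S7 was the extreme low Sirt6-KD library for Serpinb2 (0.967), and S8 the extreme high one for P3h1 (0.883) and P3h4 (0.896).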

How the results depend on the processing

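No paired analysis was possible because neither labels nor column names tie a Sirt6-KD library to a Sirt6-Ctrl library. The series record speaks of respective controls, so the unpaired p-values may pass over a pairing by rat. Over 17 alternatives none of the 9 genes changed sign. The numbers of the 9 called higher and lower were 2 and 2. With spike-in scaling they were 1 and 0, and with limma-voom 4 and 1. The number called lower was 1 without a filter, with DESeq2 size factors, with library totals and with spike-in rows removed, where Serpinf1 was lost. With each library left out, 1 to 4 were called higher and 1 to 2 lower. Over all genes, 1063 were called higher and 1416 lower. With spike-in scaling these were 20 and 4, and without S1 and S2 709 were called lower. With each library left out they ranged from 445 to 1699 and from 700 to 1913. Of the tested genes in the partner lists, 11 were called higher and 8 lower, beside 8.02% and 10.7% of all genes tested. With spike-in scaling these were 1 and 0, without S1 and S2 6 and 4, and with each library left out 6 to 15 and 4 to 9. Sirt6 was at -0.36 with spike-in scaling (adjusted p = 0.567, edgeR), or -1.31 from the median of all genes on that scale, and lay between -1.40 and -1.29 with each library left out. Without S1 and S2 the Plau to Serpinb2 difference of log2 ratios reversed from 0.13 to -1.48, and that of Serpinh1 to Serpinf1 from -0.39 to 0.18. With each library left out the former ranged from -0.51 to 1.14, reversing without S1, S2 or S7. The cause of these changes was not tested. Adding 3 counts in place of 0.5 to the ratios left none past the threshold, which a single separated pair could not pass either way. With a library left out, the exact test of the ratios cannot reach the threshold. Depth limited Thbd most, since its lowest library held 39 reads.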

Other observations

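Among 13 tested genes for other secreted or membrane serine proteases and Kunitz inhibitors, 3 were called higher and 1 lower in Sirt6-KD cells. Over all genes tested 8.02% were called higher and 10.7% lower. The median log2 fold change of the 13 was 0.14, or 0.073 without S1 and S2. C1r and C1s encode the proteases that start the classical complement pathway. Both rose, C1r from 213 ± 38.4 to 383 ± 101 CPM and C1s from 142 ± 65.2 to 331 ± 162 CPM (mean ± SD over 4 libraries), with log2 fold changes of 0.85 and 1.22 (adjusted p = 0.0158 and 0.0371, edgeR). Neither was called without S1 and S2 (0.74 and 0.88, adjusted p = 0.0711 and 0.189, edgeR). Pcsk5, a proprotein convertase, rose from 22.0 ± 4.06 to 41.3 ± 3.78 CPM, a difference in log2 of 0.91 (adjusted p = 0.00795, edgeR), and was also called without S1 and S2 (1.02). Htra3, a secreted protease with an IGF-binding domain, fell from 4.21 ± 0.76 to 1.42 ± 0.42 CPM, a difference in log2 of -1.56 (adjusted p = 0.0306, edgeR). Htra1, its relative, was at 1463 to 2153 CPM in Sirt6-Ctrl and 1420 to 1602 CPM in Sirt6-KD and was not called (-0.22, adjusted p = 0.337, edgeR).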
